A study of Ovis aries with 3 samples.

Results

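The mucosal epithelium of the proximal colon was compared with that of the duodenum in Small tailed Han sheep (SH), a Chinese breed of Ovis aries. The duodenum is the first segment of the small intestine, where digestion and nutrient uptake begin, and the proximal colon is a main site of hindgut fermentation in ruminants. Both regions were sampled from 3 healthy ewes aged 11 months, and total RNA of each region was pooled into 1 library. Each value below is thus an average over the same 3 animals, and no difference has a replicate check within these libraries. The study itself also used libraries of Texel sheep as a further biological replicate. It reported that quantitative PCR of 12 transcripts matched the sequencing profiles. Neither set of values was used here. The cecum of the same ewes, also 1 pooled library, is given beside some values. No treatment, transgene or other breed was involved in these libraries, and the question addressed was how the large intestine differs from the small intestine in its metabolism.

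The measurement was the RPKM of a transcript, that is, the reads on its exons scaled by exon length in kilobases and by the library total. Summed over distinct exons, the files held 68649323 estimated reads for the duodenum, 74984599 for the colon and 64368455 for the cecum. A transcript was included when its RPKM was at least 10 in the colon or in the duodenum, which held for 27249 of the 83089 transcripts with reads (32.8%). Just inside that threshold were 1647 transcripts with a highest RPKM of 10 to 11, and just outside it were 1894 transcripts with 9 to 10. These included transcripts came from 8792 of 28601 loci, a locus being a set of transcripts joined through a common exon. Because 25254 of the 27249 included transcripts (92.7%) belonged to loci with more than 1 transcript, transcripts are not independent observations. Gene symbols could be assigned to 4209 included transcripts of 3361 genes, and each gene is given by the transcript with the highest RPKM summed over both regions. Genes without a matched symbol, among them MUC2 and XBP1, were not analysed here.

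The epithelium of both regions is a single layer of cells that is renewed from crypts. Absorptive enterocytes of the small intestine carry a brush border of digestive enzymes and transporters, package dietary fat into lipoprotein particles and bind fatty acids and retinol with small cytosolic carriers. Absorptive cells of the large intestine take up water, salt and the short-chain fatty acids made by microbes. Goblet cells secrete mucins, which are decorated with sugar chains by glycosyltransferases of the Golgi, and trefoil factors, small peptides that protect and help to repair the mucosa. Plasma cells of the lamina propria, drawn to the gut by chemokines, secrete IgA joined by the J chain, which the epithelium carries into the lumen.

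Of the included transcripts, 2058 were 2-fold or more higher in the colon (7.55% of the 27249) and 1890 were 2-fold or more higher in the duodenum (6.94%), while 23301 (85.5%) lay within 2-fold. The fold of 2 is a size and not a test. Differences of 10-fold or more were seen in 289 transcripts of 104 loci toward the colon and in 433 transcripts of 128 loci toward the duodenum. Of the included transcripts, 21557 reached an RPKM of 10 in both regions, and among these 753 (3.49%) were 2-fold higher in the colon and 804 (3.73%) were 2-fold lower. No reads at all were counted in the colon for 19 included transcripts and in the duodenum for 20. Among the 3361 genes with a symbol, 243 were higher in the colon (7.23%) and 254 showed the reverse (7.56%), and these shares are the background against which the gene lists below are read.

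Differences were more frequent among abundant transcripts. Of the 21609 transcripts whose higher RPKM was 10 to 50, 6.91% were 2-fold higher in the colon and 5.95% were lower there by that fold. Among the 378 transcripts at 500 or above, 62 (16.4%) were higher in the colon and 52 (13.8%) lower. In the plot of all included transcripts TFF2, SPINK4, JCHAIN and FABP1 lie far from the diagonal, while TFF3 lies close to it.

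**Figure D1:**
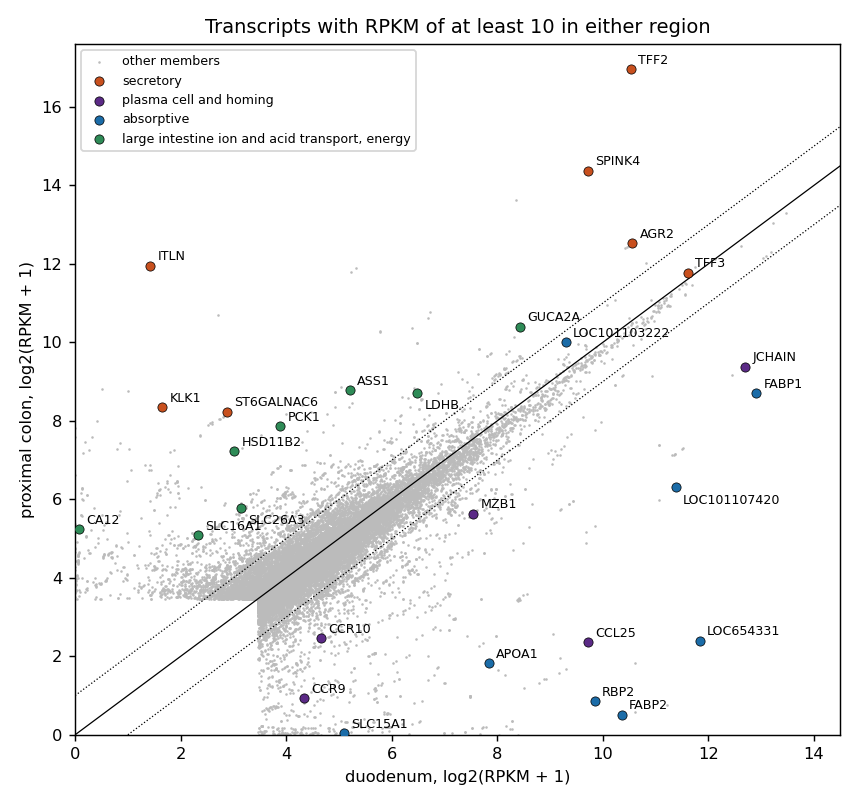
RPKM of 27249 transcripts in the duodenum (horizontal axis, log2 of RPKM + 1) and in the proximal colon (vertical axis, same scale), 1 pooled library each. The solid line marks equal values and the dotted lines a 2-fold difference of RPKM + 1, and TFF2 is the highest point on the colon axis.

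A few secretory transcripts took a large part of the colon library. TFF2, trefoil factor 2, a peptide secreted together with mucin, took 6.03% of the exon reads of the colon (95% Wilson interval 6.02 to 6.03) against 0.0719% in the duodenum and 0.0978% in the cecum. SPINK4, a Kazal-type protease inhibitor made by goblet cells, took 0.645% in the colon against 0.0264% in the duodenum and 0.149% in the cecum. Together these genes held 6.67% of the colon exon reads. All such intervals cover the counting of reads and not the variation between ewes. They take exon reads as independent counts. The exon read sum was 1.35 times the library total in the duodenum and 1.39 times in the colon. Some reads were therefore counted on more than 1 exon, which makes the intervals too narrow for the genes concerned. The cecum share of TFF2 lay close to that of the duodenum, so that within the large intestine the high share was seen in the colon library.

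The 10 loci with the most reads held 11.7% of exon reads in the colon, 7.60% in the duodenum and 5.76% in the cecum. In the plot of cumulative shares the colon curve runs above the duodenum curve from the first locus on, and without TFF2 and SPINK4 it runs below it.

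**Figure D2:**
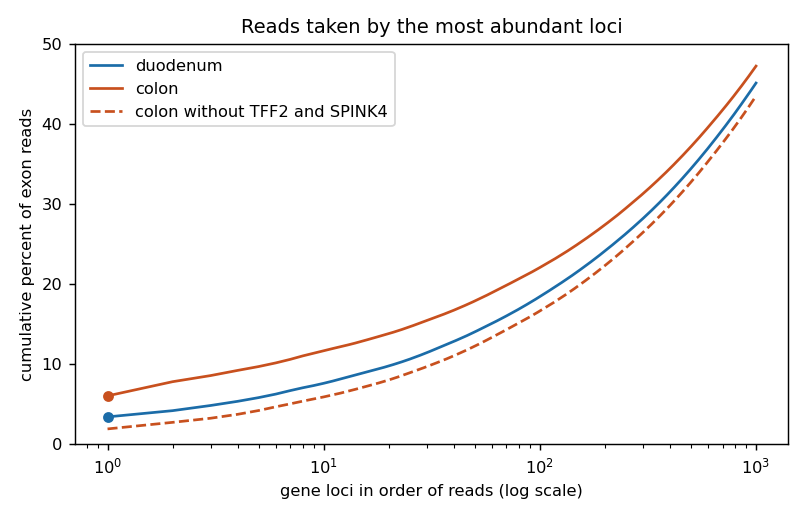
Cumulative percent of exon reads (vertical axis) on gene loci ordered by their reads (horizontal axis, log scale) in the duodenum and in the colon. A further curve shows the colon with TFF2 and SPINK4 removed from both the curve and its denominator. Dots mark the most abundant locus, at 3.40% in the duodenum and 6.03% in the colon.

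Since RPKM divides by the library total, reads on TFF2 and SPINK4 lower every other colon value. With both left out of the exon read sums, all other colon values were 7.15% higher and all other duodenum values 0.0984% higher, a uniform shift of 0.098 in the log2 ratio of colon over duodenum. TFF2 alone accounted for 0.089 of it and SPINK4 for 0.009. On that scale the numbers of transcripts at 2-fold or more became 2490 toward the colon and 1653 toward the duodenum, from 2058 and 1890, and the median log2 ratio of the included transcripts moved from −0.05 to 0.06. These values rest on the exon read sums. Over the read total by which RPKM was scaled, TFF2 and SPINK4 held 9.29% in the colon, and the shift on that total was not computed. The 8 steady reference genes, from the ribosomal protein gene RPL4 at a log2 ratio of −0.36 to the glycolytic enzyme gene GAPDH at 0.32, all stayed within 2-fold.

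Summed over loci with a larger share in the colon, the gain was 19.4 percentage points of exon reads, of which 30.7% fell on TFF2 and 48.1% on the first 10 loci. The loss, 19.5 percentage points, was spread more evenly, with 24.8% on its first 10 loci. The locus with the most reads in the duodenum, represented by the unnamed transcript XM_012135597.1, had an RPKM of 8084 in duodenum, 4913 in cecum and 4344 in colon, and held 8.34% of the loss. Second in the duodenum was the locus of XM_012103087.1, also without a symbol, at 1879.9 in duodenum, 767.7 in cecum and 103.1 in colon. Another abundant transcript without a symbol, XM_012153721.1, was among the 5 loci with the most colon reads, with 12679 against 327.2 in the duodenum and 2303 in the cecum. The locus of B2M, the light chain of MHC class I, was the fourth in the duodenum, and B2M differed by a log2 ratio of −0.16.

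Of 38 listed mucous secretory genes only 8 could be matched, so this list was thinly covered. Of these 8 genes, 5 were 2-fold or more higher in the colon, 1 was higher in the duodenum and 2 lay within 2-fold. Their median log2 ratio was 3.31 on the log2(RPKM + 1) scale, against −0.10 over all 3361 genes. Their summed RPKM was 7000 in duodenum, 12443 in cecum and 158565 in colon, most of the last being TFF2. TFF2, SPINK4 and ST6GALNAC6 were chosen by the study on these samples, so their direction is not independent evidence.

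TFF2 had an RPKM of 1470.4 in duodenum, 2060.0 in cecum and 127220 in colon, 86.5-fold higher in the colon than in the duodenum (log2 ratio 6.43, 95% exact Clopper-Pearson interval 6.42 to 6.45). SPINK4 stood at 843.5, 4905 and 21237 in the same order, 25.2-fold higher in the colon (log2 ratio 4.65, interval 4.63 to 4.68). For SPINK4 the cecum was intermediate, whereas for TFF2 it was not raised to a comparable degree.

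AGR2, a protein disulfide isomerase of the endoplasmic reticulum needed for mucin production, was 3.93-fold higher in the colon, at 5915 against 1503 in the duodenum, with 1868 in the cecum. Its relative AGR3 was at 40.9 in duodenum, 34.95 in cecum and 70.6 in colon, within 2-fold. TFF3, the trefoil factor of intestinal goblet cells, was nearly level, with 3117 in duodenum, 3357 in cecum and 3499 in colon (log2 ratio 0.17, interval 0.15 to 0.18). TFF1, the trefoil factor of the gastric surface, went the other way at low levels, with 15.8 in duodenum, 0 in cecum and 1.09 in colon. The 3 trefoil factor genes thus differed in direction, and the RPKM of TFF2 relative to TFF3 was 0.472 in the duodenum and 36.4 in the colon. Relative to the epithelial adhesion gene EPCAM, TFF2 went from 2.53 to 213.4.

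KLK1, tissue kallikrein, a secreted serine protease, had 2.14 in duodenum, 19.4 in cecum and 322.8 in colon, a 151-fold difference (log2 ratio 7.24, interval 6.93 to 7.56). ST6GALNAC6, which adds sialic acid to N-acetylgalactosamine residues, had 6.34, 198.3 and 300.1, so that cecum and colon both stood well above the duodenum. ITLN, an intelectin, a secreted lectin that binds microbial sugars, showed the largest difference toward the colon of all included loci on the log2(RPKM + 1) scale, with 1.69 in duodenum, 23.1 in cecum and 3968 in colon.

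**Figure D3:**
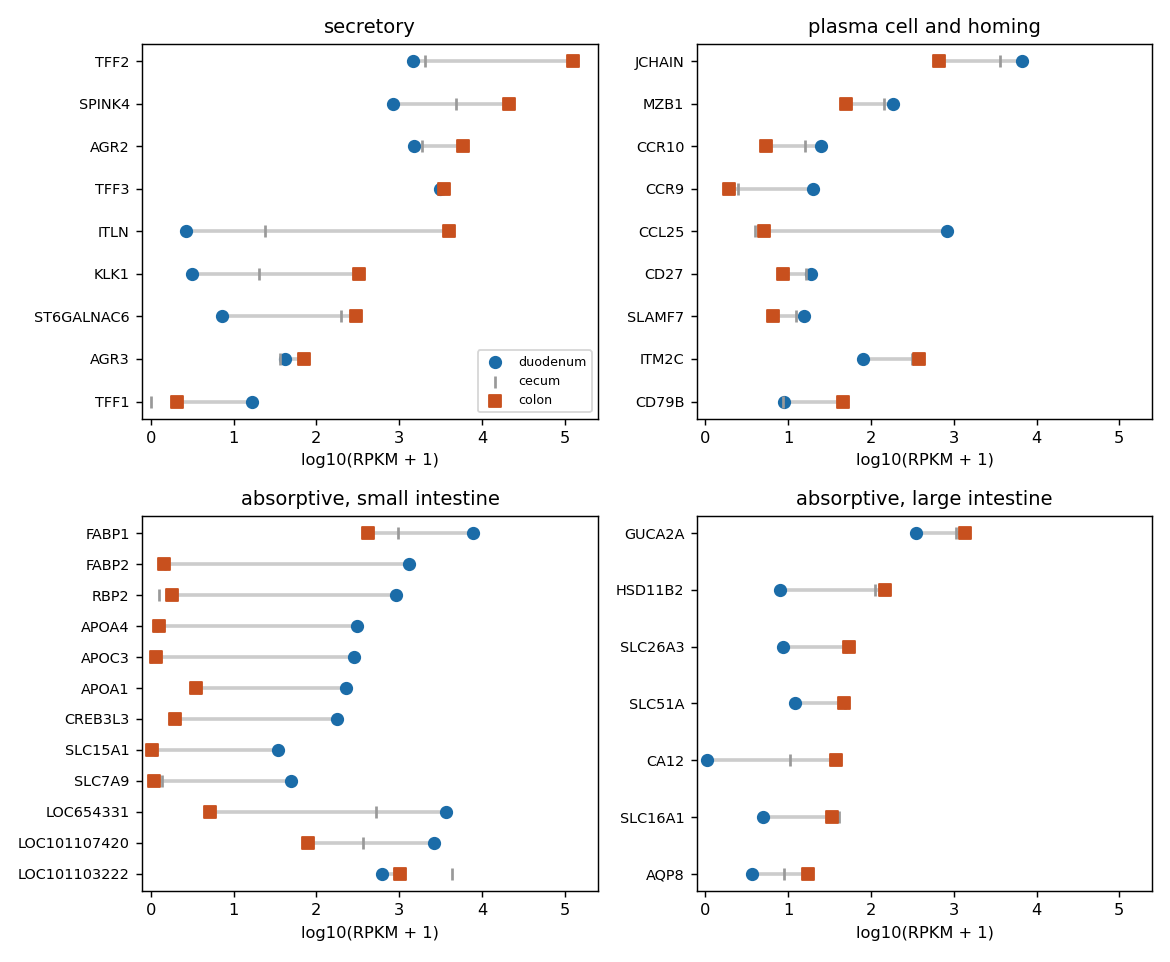
RPKM of named transcripts (horizontal axis, log10 of RPKM + 1) in the duodenum, cecum and colon, 1 pooled library each, in 4 panels of secretory, plasma-cell and homing, small-intestinal absorptive and large-intestinal absorptive genes. TFF2 is at 1470.4 in the duodenum and 127220 in the colon while TFF3 overlaps between the regions, and the small-intestinal absorptive genes FABP2, RBP2 and APOA4 lie near 0 in cecum and colon.

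The exons of a transcript are not replicates, since they come from the same library, but they show whether a difference rests on part of the transcript. The 4 exons of TFF2 had log2 ratios of 6.40 to 6.49 and the 4 exons of SPINK4 4.57 to 4.71. Across 8 exons of AGR2 the range was 1.88 to 2.10. ITLN varied more, from 9.16 to 13.30, with exon values in the duodenum of 0.287 to 4.89. Of the 74 listed genes called 2-fold different, 73 had every exon with an RPKM of at least 1 on the same side, the exception being SLAMF7, described below.

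**Figure D4:**
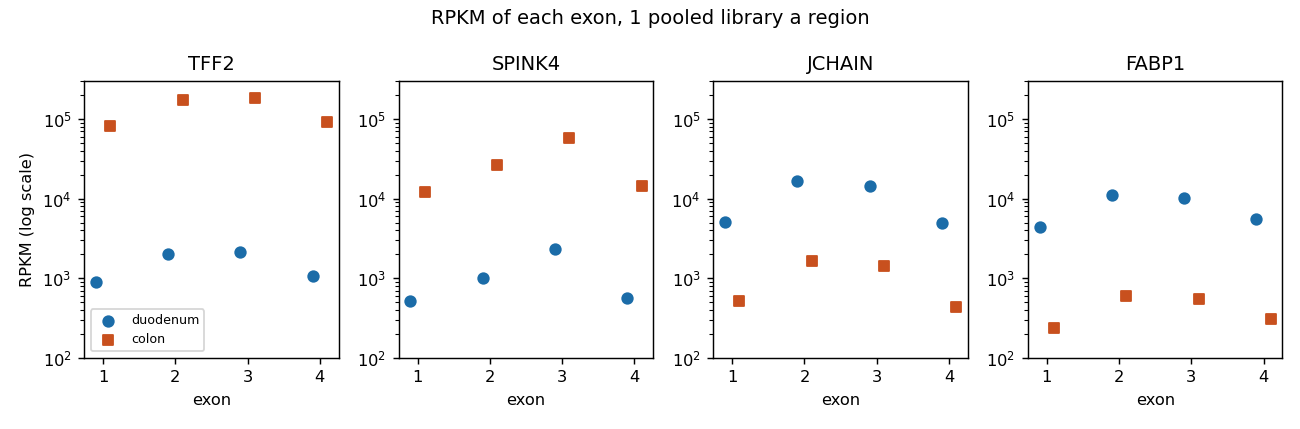
RPKM of each exon (vertical axis, log scale) in the duodenum and the colon for TFF2, SPINK4, JCHAIN and FABP1, with exons in the order of the files on the horizontal axis. The distance between the regions is nearly the same in the 4 exons of each gene, from 6.40 to 6.49 log2 units in TFF2 and from −4.24 to −4.19 in FABP1.

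Genes of mucin glycosylation were mostly higher in the colon. Of 13 matched genes, 9 were 2-fold or more higher in the colon, 0 in the duodenum and 4 within 2-fold, with a median log2 ratio of 1.86 and a summed RPKM of 170.7 in duodenum, 478.5 in cecum and 843.5 in colon. B3GNT7, which extends chains with N-acetylglucosamine, was at 0.174 in duodenum, 0.570 in cecum and 67.7 in colon, a pattern like that of TFF2 in that the cecum was low. CHST4, a sulfotransferase acting on N-acetylglucosamine, had 14.7, 32.0 and 68.7, and the sialyltransferase gene ST6GALNAC4 had 28.7, 73.1 and 118.2. B4GALT1, a galactosyltransferase, was 3.99-fold higher in the colon, at 125.1 against 31.3. The initiating enzyme GALNT6 stood at 12.3 in the duodenum and 49.4 in the colon, 4.01-fold higher. ST3GAL4 and ST3GAL6, which add sialic acid to galactose, were 3.997-fold and 2.82-fold higher. The ninth was GALNT5, named after its value was seen, at 8.04 and 17.4. ST6GALNAC6 is counted in this list as well as among the mucous secretory genes.

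Genes of protein folding and export in the endoplasmic reticulum, on which secretory cells depend, did not share this direction. All 12 matched genes were within 2-fold, with a median log2 ratio of −0.43 and a summed RPKM of 3371 in the duodenum and 2685 in the colon. HSP90B1, an endoplasmic reticulum chaperone, was close to the limit at 505.5 in duodenum, 379.1 in cecum and 253.9 in colon (log2 ratio −0.99, interval −1.01 to −0.98), and it passed 2-fold toward the duodenum when values were scaled by the exon read sum. HSPA5, the chaperone BiP, was at 305.1 and 225.3, and the calcium-binding chaperone gene CALR at 812.2 and 604.4. DNAJB11 and DNAJB9, cochaperones of BiP, had log2 ratios of −0.72 and −0.70. KDELR2, a receptor that returns proteins to the endoplasmic reticulum, was somewhat higher in the colon at 156.9 against 117.5. These genes are active in plasma cells as well as in goblet cells.

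Paneth and antimicrobial genes were thinly covered, with 6 matched and 3 included. PI3, elafin, a protease inhibitor with antimicrobial activity, was at 1.03 in duodenum, 464.4 in cecum and 154.8 in colon, highest in the cecum. LTF, lactoferrin, an iron-binding defence protein, was at 46.0 in the duodenum and 89.0 in the colon, within 2-fold, and passed 2-fold toward the colon when TFF2 and SPINK4 were left out of the totals. LYZ, a lysozyme, was at 23.8 and 11.98, just within 2-fold, and passed it toward the duodenum with scaling by the exon read sum.

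Transcripts of antibody-secreting cells and of their homing differed in both directions, with more of them lower in the colon. The list of plasma cell and homing genes had 16 matched and 15 included genes, of which 8 were 2-fold or more higher in the duodenum, 2 higher in the colon and 5 within 2-fold, against 7.56% and 7.23% of all genes in these directions. The median log2 ratio of the included genes was −1.11, and the summed RPKM of the matched genes was 8244 in duodenum, 4467 in cecum and 1484 in colon, most of it from JCHAIN. The list also holds 2 chemokines of the epithelium, CCL25 and CCL28, and receptors that T cells can carry. CCL25 and the receptor gene CCR9 are among the 8 genes higher in the duodenum. Of these 8 genes only JCHAIN and MZB1 reached an RPKM of 10 in both regions. JCHAIN was chosen by the study on these samples, so its direction is not independent evidence.

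JCHAIN, the J chain that joins IgA and IgM into polymers, had an RPKM of 6626 in duodenum, 3659 in cecum and 662.7 in colon. It was 10-fold higher in the duodenum (log2 ratio −3.32, interval −3.34 to −3.31), with exon ratios of −3.49 to −3.28. It held 0.647% of the exon reads of the duodenum and 0.0627% of those of the colon. MZB1, a cochaperone for antibody assembly in the endoplasmic reticulum, stood at 185.8 in duodenum, 142.7 in cecum and 48.5 in colon, 3.83-fold higher in the duodenum. The difference was thus larger for JCHAIN than for MZB1, and the RPKM of JCHAIN relative to MZB1 was 35.7 in the duodenum and 13.7 in the colon. Relative to EPCAM, JCHAIN was at 11.4 in the duodenum and 1.11 in the colon. In bulk RNA, fewer cells of a type and less RNA per cell cannot be told apart.

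SLAMF7, a surface receptor abundant on plasma cells, was at 14.7 in duodenum, 11.5 in cecum and 5.51 in colon, with 1 of 6 exons on the opposite side. CD27 and PRDM1, named after their values were seen, completed the 8 genes higher in the duodenum. CD27, a receptor of memory B cells and plasma cells, was at 18.0 and 7.69, and PRDM1, the transcription factor Blimp-1, at 11.03 and 4.56.

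CCL25 and its receptor CCR9 showed the largest differences in this list. CCL25, the chemokine that small-intestinal epithelium makes, had 835.5 in duodenum, 2.97 in cecum and 4.15 in colon, 201-fold higher in the duodenum than in the colon (log2 ratio −7.65, interval −7.93 to −7.39). Its receptor CCR9, carried by gut-homing plasma cells and T cells, was at 19.2, 1.51 and 0.916. CCR10, the receptor through which IgA plasma cells respond to CCL28, was at 24.1, 15.1 and 4.48. CCL28 itself, named after its value was seen, was at 62.4, 68.6 and 45.0, within 2-fold.

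Included genes 2-fold or more higher in the colon were CD79B and ITM2C. CD79B, a signalling chain of the B cell receptor, was at 7.93 in duodenum, 7.72 in cecum and 45.1 in colon, while its partner CD79A, named afterwards, was within 2-fold at 43.9 and 50.7. ITM2C, a membrane protein gene found in plasma cells and other cell types, was at 78.4, 314.8 and 380.1. Also within 2-fold, and named afterwards, were POU2AF1, ITGA4 and FKBP11 of the same list. POU2AF1 was at 33.3 in duodenum and 49.7 in colon, ITGA4 at 8.76 and 11.1, and FKBP11 at 265.6 and 157.0. Of 3 matched B cell genes 2 were included, the complement receptor gene CR2, higher in the colon at 17.7 against 3.26 in the duodenum, and CD40, within 2-fold at 12.9 against 9.68, and the summed RPKM of the 3 genes was 13.7 in the duodenum and 39.1 in the colon. PAX5, a transcription factor that B cells lose on becoming plasma cells, was below the threshold at 0.772 and 8.58. None of these was at 0 in either region, and their part in the plasma-cell values was not tested.

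T cell genes were within 2-fold for all 8 included of 10 matched, with a median log2 ratio of −0.73 and a summed RPKM of 404.5 in duodenum, 294.3 in cecum and 254.6 in colon. CD3E, a chain of the T cell receptor complex, was nearest to the limit with 111.4 and 56.9, and passed it when values were scaled by the exon read sum. Each included T cell gene had its lower value in the colon, by less than that seen for JCHAIN.

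Genes for the uptake and packaging of fat and cholesterol were higher in the duodenum. Of 19 matched genes 14 were included, and 11 of these were 2-fold or more higher in the duodenum, 0 in the colon and 3 within 2-fold. The median log2 ratio of the matched genes was −3.51, and their summed RPKM was 11150.5 in duodenum, 1080.1 in cecum and 523.9 in colon. In contrast to TFF2, these genes set the cecum and the colon together on the low side. FABP1, NPC1L1, ABCG5 and ABCG8 are among the genes that the study named from these samples, so their direction is not independent evidence.

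FABP1, the liver-type fatty acid-binding protein, had an RPKM of 7692 in duodenum, 966.8 in cecum and 413.5 in colon, 18.6-fold higher in the duodenum (log2 ratio −4.22, interval −4.24 to −4.19). FABP2, the intestinal fatty acid-binding protein, had 1313, 0.503 and 0.427. Both carriers were abundant in the duodenum, yet FABP1 remained well measured in the large intestine while FABP2 was below 1, and the RPKM of FABP1 relative to FABP2 was 5.86 in the duodenum and 968.3 in the colon.

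RBP2, the retinol-binding protein of enterocytes, was at 915.9 in duodenum, 0.261 in cecum and 0.804 in colon. Apolipoprotein genes of chylomicrons were also low in both parts of the large intestine, with APOA4 at 308.2, 0.197 and 0.272, and APOA1 at 228.8, 2.91 and 2.54. APOC3 was at 286.3 in duodenum, 0 in cecum and 0.164 in colon. CREB3L3, a membrane-bound transcription factor of lipid genes, was at 178.5, 1.21 and 0.936, and SOAT2, which esterifies cholesterol, at 20.1, 0.142 and 0.385. The other 3 genes higher in the duodenum, named after their values were seen, were the cholesterol transporter genes NPC1L1, ABCG5 and ABCG8, at 10.3, 13.6 and 19.1 in the duodenum and all below 1 in the colon. Within 2-fold, and also named afterwards, were DGAT1 of triglyceride synthesis at 102.1 and 56.3, SAR1B of chylomicron transport at 20.8 and 12.8, and PLIN2 of lipid droplets at 23.4 and 19.0.

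Of brush border and sugar or peptide uptake genes, 14 were matched and 9 included, with 7 higher in the duodenum, 0 in the colon and 2 within 2-fold. The list holds 3 abundant transcripts known by a locus symbol, for which no role is given, and among its 6 other included genes 5 were higher in the duodenum. The transcripts with a locus symbol were chosen by the study on these samples, so their direction is not independent evidence. SLC7A9, a subunit of the transporter for cystine and basic amino acids, was at 48.5 in duodenum, 0.369 in cecum and 0.0909 in colon. SLC15A1, the transporter of di- and tripeptides PEPT1, was at 33.25, 0.137 and 0.0272, and its log2 ratio of −10.26 had the wide interval of −12.13 to −8.90 because few reads were counted in the colon. SLC2A5, the fructose transporter GLUT5, was at 29.5, 0.826 and 3.11.

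Peptidase genes differed less than the transporter genes SLC7A9 and SLC15A1. XPNPEP2, a membrane aminopeptidase P, was at 10.6 in the duodenum and 3.15 in the colon, and MEP1B, the beta subunit of meprin, at 49.6 and 21.7. SLC5A1, the sodium-glucose transporter SGLT1, was within 2-fold at 71.4 in duodenum, 41.3 in cecum and 51.9 in colon, and is named after its value was seen.

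The 3 transcripts known by a locus symbol behaved in different ways. LOC654331 was at 3648 in duodenum, 524.4 in cecum and 4.26 in colon (log2 ratio −9.74, interval −9.97 to −9.54). LOC101107420 was at 2665, 362.6 and 77.8 (log2 ratio −5.10), so that for both the cecum lay between the other regions. LOC101103222 was highest in the cecum at 4357, with 626.2 in the duodenum and 1026.3 in the colon, and its 4 exons gave log2 ratios of colon over duodenum of 0.67 to 0.82, within 2-fold.

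Among genes of iron, calcium and vitamin uptake, 3 were matched and 1 was included. This was TCN2, a carrier of vitamin B12, at 27.3 in the duodenum and 13.5 in the colon, a 2.03-fold difference that ended when TFF2 and SPINK4 were left out of the totals.

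Genes for salt, water and fatty acid handling in the large intestine went the other way. Of 22 matched genes 14 were included, and 8 of these were 2-fold or more higher in the colon, 0 in the duodenum and 6 within 2-fold, with a median log2 ratio of 0.87 for the matched genes. Their summed RPKM was 1399 in duodenum, 3096 in cecum and 3273 in colon. Unlike TFF2, most of these genes stood at similar levels in the cecum and the colon. SLC16A1 and SLC5A8 were named by the study from these samples, so their direction is not independent evidence.

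CA12, a membrane carbonic anhydrase, was at 0.0484 in duodenum, 9.59 in cecum and 36.9 in colon. HSD11B2, which inactivates cortisol and so keeps the mineralocorticoid receptor free for aldosterone, was at 7.06, 111.8 and 148.7, 21.1-fold higher in the colon (log2 ratio 4.40, interval 4.28 to 4.51). SLC26A3, the chloride-bicarbonate exchanger of the apical membrane, was at 7.80, 49.5 and 53.7. SLC16A1, the monocarboxylate transporter MCT1, was at 3.99, 40.1 and 33.0, 8.27-fold higher in the colon, and BSG, the basigin protein that brings it to the membrane, was at 294.5, 708.6 and 609.1. AQP8, a water channel, was at 2.68, 8.03 and 16.2.

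GUCA2A, guanylin, a peptide that regulates fluid secretion, was at 345.5 in duodenum, 1058 in cecum and 1351 in colon, 3.91-fold higher in the colon. SLC51A, a subunit of the basolateral bile acid transporter, was at 11.2, 47.4 and 46.0. SLC51B, its partner subunit, and the fatty acid transporter gene SLC5A8 were below the threshold and are named after their values were seen. SLC51B went the other way, at 9.22 in duodenum, 4.39 in cecum and 4.45 in colon, and SLC5A8 was at 0.716, 0.796 and 2.51.

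Genes of energy metabolism that the study discusses were partly higher in the colon. Of 13 matched genes 11 were included, of which 5 were 2-fold or more higher in the colon, 0 in the duodenum and 6 within 2-fold, and the study chose these genes on these same samples, so their direction is not independent evidence. PCK1, phosphoenolpyruvate carboxykinase of gluconeogenesis, was at 13.8 in duodenum, 66.2 in cecum and 231.3 in colon, 16.8-fold higher in the colon (log2 ratio 4.07, interval 4.003 to 4.138). ASS1, argininosuccinate synthase of arginine and urea synthesis, was at 36.02, 139.2 and 437.6, 12.1-fold higher. LDHB, the heart-type subunit of lactate dehydrogenase, was at 88.2, 478.1 and 419.1, 4.75-fold higher. All 14 exons of ASS1, 12 of PCK1 and 7 of LDHB had higher values in the colon.

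CPT1A, which admits long-chain fatty acids to mitochondria, was 2.38-fold higher in the colon, and FABP3, a fatty acid-binding protein of muscle, 2.16-fold higher. The mitochondrial trifunctional protein genes HADHA and HADHB of the next steps of fatty acid oxidation had log2 ratios of −0.53 and −0.52. PPARG, a nuclear receptor for fatty acids, was at 16.0 in the duodenum and 26.2 in the colon, within 2-fold.

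**Figure D5:**
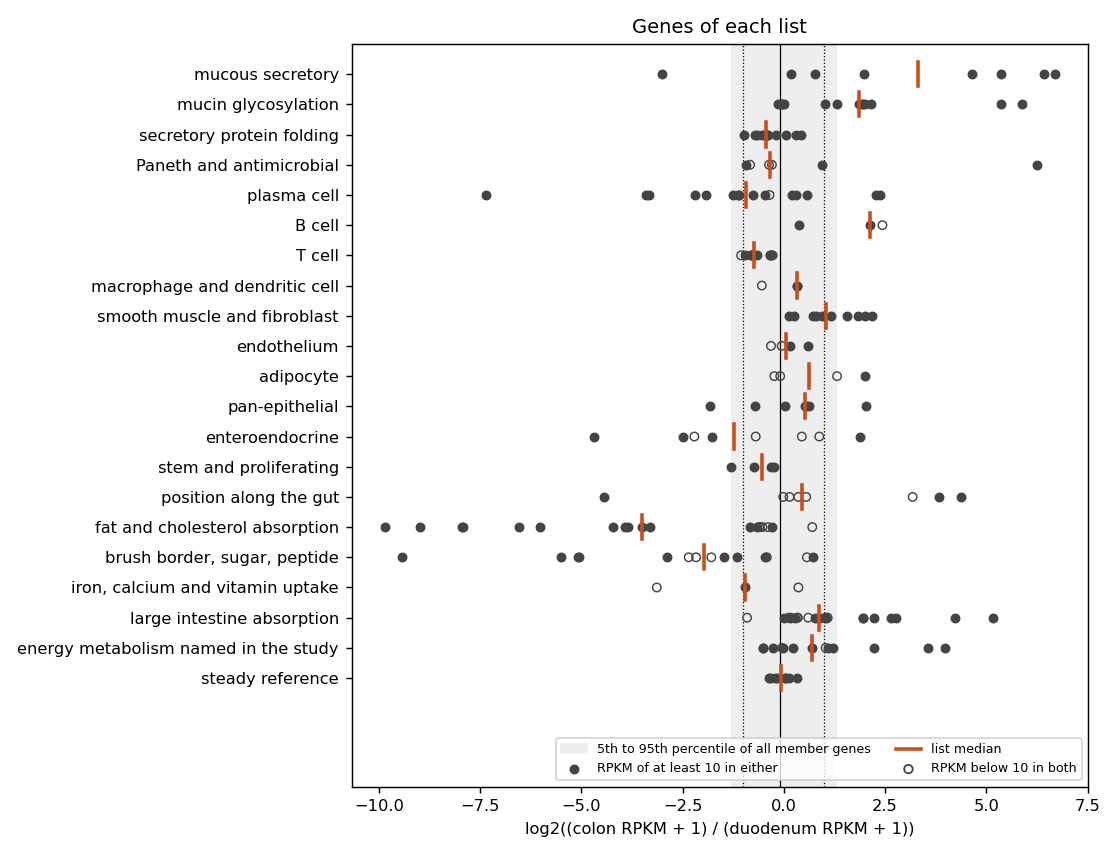
Log2 of (colon RPKM + 1) over (duodenum RPKM + 1) for the matched genes of each list (horizontal axis), 1 point per gene, with list medians as bars, a 2-fold difference as dotted lines and the range from the 5th to the 95th percentile of 3361 genes (−1.29 to 1.29) shaded. Mucous secretory and glycosylation genes lie mostly to the right, fat absorption genes to the left, and protein folding genes near 0.

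Markers were checked for the tissue and for other cell types. Of 7 pan-epithelial genes 5 were within 2-fold, with a summed RPKM of 2378 in duodenum, 3323 in cecum and 2871 in colon. EPCAM was at 582.1, 550.3 and 596.2, and the keratin gene KRT8 at 822.8, 1635 and 1198. CLDN4, a tight junction claudin, was the gene higher in the duodenum at 24.3 against 6.18, and CDX1, an intestinal transcription factor, the gene higher in the colon at 24.7 against 5.34. The included position genes set the cecum and the colon apart from the duodenum, and where in the colon the sample lay was not tested. HOXB9, a posterior homeobox gene, was at 2.88 in duodenum, 104.7 in cecum and 79.9 in colon, and HOXA9 at 0.0136, 12.3 and 13.4. ONECUT2, a transcription factor of the proximal gut, was at 21.5, 0.0398 and 0.0343. HOXB13, a marker of the hindmost gut below the threshold, was at 0, 0.0704 and 8.07. HOXD10, also below the threshold, differed between cecum and colon in the opposite direction, at 0.0108, 3.93 and 0.292.

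Although the labels name epithelial tissue, muscle and connective tissue genes were abundant in both regions. Of 10 such genes, all included, 5 were 2-fold or more higher in the colon and 5 within 2-fold, with none at 0 and a summed RPKM of 1544 in duodenum, 6719 in cecum and 4449 in colon. DES, desmin, was at 199.0, 1376 and 900.9. ACTG2 and CNN1 of smooth muscle were at 317.3 and 121.6 in the duodenum and 1129 and 489.7 in the colon, and TAGLN at 285.4 and 837.9. The collagen gene COL3A1 was at 128.8 and 290.4. Without TFF2 and SPINK4 in the totals, 6 of the 10 were higher in the colon. These values were highest in the cecum, where TFF2 was low, and their part in the differences of the lists above was not tested.

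Macrophage genes had 2 included of 3 matched, CD14 and CD68, and endothelial genes 2 of 4, PECAM1 and KDR, all within 2-fold. Of 4 adipocyte genes, FABP4, a fatty acid-binding protein also found in vessels, was included at 5.70 in the duodenum and 25.9 in the colon, and the others were below the threshold, with PLIN1 at 0.916 and 3.76, CIDEC at 3.06 and 2.81, and CIDEA at 1.65 and 1.25. Enteroendocrine genes differed in both directions. Of 8 matched genes 4 were included, and all 4 differed by more than 2-fold. CHGA, a granule protein, was at 496.6 and 145.2, the hormone genes SST at 117.8 and 20.2 and MLN, motilin, at 102.4 and 3.004, all higher in the duodenum, and GCG, the source of GLP-1, was higher in the colon at 82.9 against 21.9. Of 4 stem and proliferation genes, OLFM4, a secreted crypt protein, was higher in the duodenum at 1201 against 482.2 with 2938 in the cecum, and the proliferation genes TOP2A, PCNA and CDK1 were within 2-fold.

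On the log2(RPKM + 1) scale, which ranks genes near 0 in a region below what their plain ratio would give, the 5 loci with the largest difference toward the colon were ITLN, GPR15LG, a locus without a symbol, TRH and LOC101108654. GPR15LG, a peptide ligand of a T cell homing receptor of the colon, was at 0.421 in duodenum, 606.0 in cecum and 451.1 in colon. The transcript XR_001043348.1 was at 5.56, 1829 and 1653. TRH, thyrotropin-releasing hormone, had no read in duodenum, 0.102 in cecum and 222.5 in colon, which is at least 5569-fold higher in the colon with 3 reads as the floor for the duodenum library. LOC101108654 was at 0.994, 366.6 and 432.2. Of these, ITLN and TRH had a cecum value far below that of the colon, as TFF2 had, and the other 3 were high in both parts of the large intestine.

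Toward the duodenum the 5 loci with the largest differences on the same scale were those of XM_012148943.1, FABP2, LOC654331, RBP2 and XM_012170952.1. XM_012148943.1 was at 2374 in duodenum, 1.51 in cecum and 0.702 in colon, and XM_012170952.1 at 1549.8, 1.11 and 2.54. In the locus of FABP2 the transcript with the largest difference was XM_012155961.1, at 1561, 0.598 and 0.508. In 4 of these 5 loci the cecum was as low as the colon, LOC654331 being the exception.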

How the data were processed

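For duodenum, cecum and proximal colon, 1 library each, pooled from 3 ewes, was sequenced from total RNA of the mucosal epithelium. For each exon of each transcript the authors deposited an estimated count of reads, the RPKM made from it with the read total in the header, and the percent of the exon covered, which was not used. The labels list BWA and Bowtie 0.12.2, and the study's methods describe Bowtie2 and RSEM against the sheep genome v4.0, so the aligner, and the build and annotation of the files, are uncertain. The files give no chromosomes and no coordinates are printed.

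Estimated counts and lengths were summed per transcript over exons seen in any of the 3 files, with an absent exon at 0, and divided by the header total. Since reads were summed and not tested, they were rounded for the intervals and the Audic-Claverie test alone. Exon reads summed over distinct exons were 1.35 (duodenum), 1.39 (cecum) and 1.39 (colon) times the header total, and shares are given over these sums. Distinct exons that overlap were each counted, so a locus with several transcripts can hold the same read more than once. Shares and ranks of loci by reads are approximate for that reason. The limit set by a count of 3 reads was 5.90e-06% of the duodenum read total, 6.48e-06% for cecum and 5.57e-06% for colon.

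Symbols came from a RefSeq table of assembly ARS-UI_Ramb_v3.0, matched by accession without version for 8735 of 83089 transcripts, and for 4 more from the study's qRT-PCR table, of whose 12 transcripts 10 were used and 2 were not analysed here. Of 420 listed symbols 194 were matched and 150 reached an RPKM of 10, and a further listed gene is not reported here. With 1 library per region there is no test, and a call is a ratio of RPKM of at least 2. Log2 ratios have 95% exact Clopper-Pearson intervals and shares Wilson intervals, which cover counting error only. Differences of lists are on the log2(RPKM + 1) scale, which understates the change of low genes. The calculation was tested on simulated data.

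The members and lists were chosen with earlier results of these data known. Named were the qRT-PCR transcripts, for each list at most the 8 included genes with the largest difference, the defining markers of other cell types, and the 5 loci with the largest differences or the most reads. Alternatives were other filters, pseudocounts of 0.1 and 1, other scalings, loci in place of transcripts, the median exon, a fold of 4 and the Audic-Claverie test with a false discovery rate of 0.001. Scripts ran under Python 3.11.15 with scipy 1.17.1, pandas 2.3.3, matplotlib 3.10.9 and numpy 2.4.6.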

Additional observations from a re-analysis of the deposited data

How the results depend on the processing

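No paired analysis was possible because each region is 1 pooled library, and no library could be left out. The numbers of transcripts at 2-fold or more, 2058 toward the colon and 1890 toward the duodenum, depended mostly on the filter. They were 12607 and 9921 with no filter, 5287 and 4048 at an RPKM of at least 1, 564 and 604 at 50, 522 and 524 over gene loci, and 705 and 750 at a fold of 4. Chosen after seeing the data, an RPKM of 10 in both regions gave 753 and 804, and 1 transcript per gene with a symbol gave 243 and 254. Pseudocounts, median-ratio rescaling, removal of TFF2 and SPINK4, scaling by the exon read sum, the median exon and the Audic-Claverie test left both numbers within 1.5 times, and of these scaling by the exon read sum alone made the duodenum side the larger, with 1544 and 1676. Removal of TFF2 and SPINK4 gave 2490 and 1653.

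The median log2 ratio, −0.054, was 0.0177 with no filter, 0.00694 under median-ratio rescaling and 0.057 without TFF2 and SPINK4, so its sign depends on the filter and the scaling. It was −0.00562 at an RPKM of at least 1, −0.127 at 50, −0.0874 over loci, −0.115 by the exon read sum and −0.0423 by the median exon. The share of colon reads on TFF2 and SPINK4 was 9.29% over the header total. Of 1119 values over 188 genes, 19 changed sign, in 12 genes whose log2 ratio was at most 0.398 in size, and 0 did so among genes 2-fold or more different, and a scaling moved a log2 ratio by at most 0.0982. Of 126 list counts under a scaling, 8 changed, in the folding, antimicrobial, T cell, muscle and vitamin uptake lists. Depth limits low values such as SLC15A1 in the colon.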
